A study of Mus musculus with 8 samples.

Results

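Cholesterol synthesis was followed in microglia through 7 genes: Srebf2, Insig1, Hmgcs1, Idi1, Fdft1, Sqle and Cyp51. They were chosen by name as enzymes of the sterol pathway or parts of its regulation, and all 7 were found among the 26062 gene IDs of the deposited count table and among the 17390 genes that passed the filter on low counts. None of the 7 is an uptake receptor, so uptake was followed in a separate list of genes. RNA was sequenced from cells of the lateral geniculate nucleus (LGN), where retinal axons end in the thalamus, of wild-type male C57BL/6J mice aged 2 to 3 months. Microglia, the resident macrophages of the brain, were purified with magnetic beads (MACS) against CD11b, a surface protein that other myeloid cells also carry. The groups were uninjured (2 libraries), day 1 (3 libraries) and day 3 (3 libraries) after crush of both optic nerves, an injury that cuts off the retinal axons ending in the LGN. All groups shared the strain, the sex, the genotype and the bead purification, and how many animals went into each library is not stated in the labels. The p-values therefore set differences between group means against the spread between these libraries, part of which may be technical.

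The libraries held 12700098 to 17994861 counts and 18035 to 22395 genes with a count. The purified cells carried their label: 8 of 8 microglial markers had counts in every library, with a summed level of 7140 and 9372 CPM, the count scaled to library size, in uninjured, 10239 to 12918 CPM in day 1 and 6894 to 8430 CPM in day 3 libraries. The 8 markers did not move alike. By the edgeR test given below, 1 rose at day 1 over uninjured, where 1.77% of all genes were called. At day 3 over uninjured 2 fell (3.47% of all genes called) and 5 had a higher estimate, and between the days 3 fell (11.0%). Itgam, which encodes CD11b, had a mean of 508 CPM in uninjured, 1282 CPM in day 1 and 298 CPM in day 3 libraries. Markers of the choroid plexus, the epithelium that makes cerebrospinal fluid, set libraries apart within and between groups. Their summed level over 8 genes was 5544 and 527 CPM in the uninjured libraries, 1.09, 56.6 and 1.23 CPM in the day 1 libraries, and 3588, 624 and 1977 CPM in the day 3 libraries. In the day 1 libraries 6, 3 and 5 of those 8 genes were at 0, and in the other libraries none was. Endothelial markers, 12 genes with no zero in any library, summed to 2024 and 1847 CPM in uninjured, 879 to 1124 CPM in day 1 and 1604 to 1625 CPM in day 3 libraries. Genes of cell division, 10 in number, summed to 183 and 140 CPM in uninjured, 169 to 194 CPM in day 1 and 1417 to 2215 CPM in day 3 libraries. Monocyte and neutrophil markers, whose cells CD11b beads also bind, summed over 9 genes to 45.1 and 39.7 CPM in uninjured, 54.5 to 164 CPM in day 1 and 29.3 to 48.3 CPM in day 3 libraries. Mitochondrial genes took 22.5% and 21.3% of counts in uninjured, 13.6%, 21.9% and 13.9% in day 1, and 22.8%, 28.9% and 30.3% in day 3 libraries. The plot of marker levels by library shows the marker sums.

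**Figure D1:**
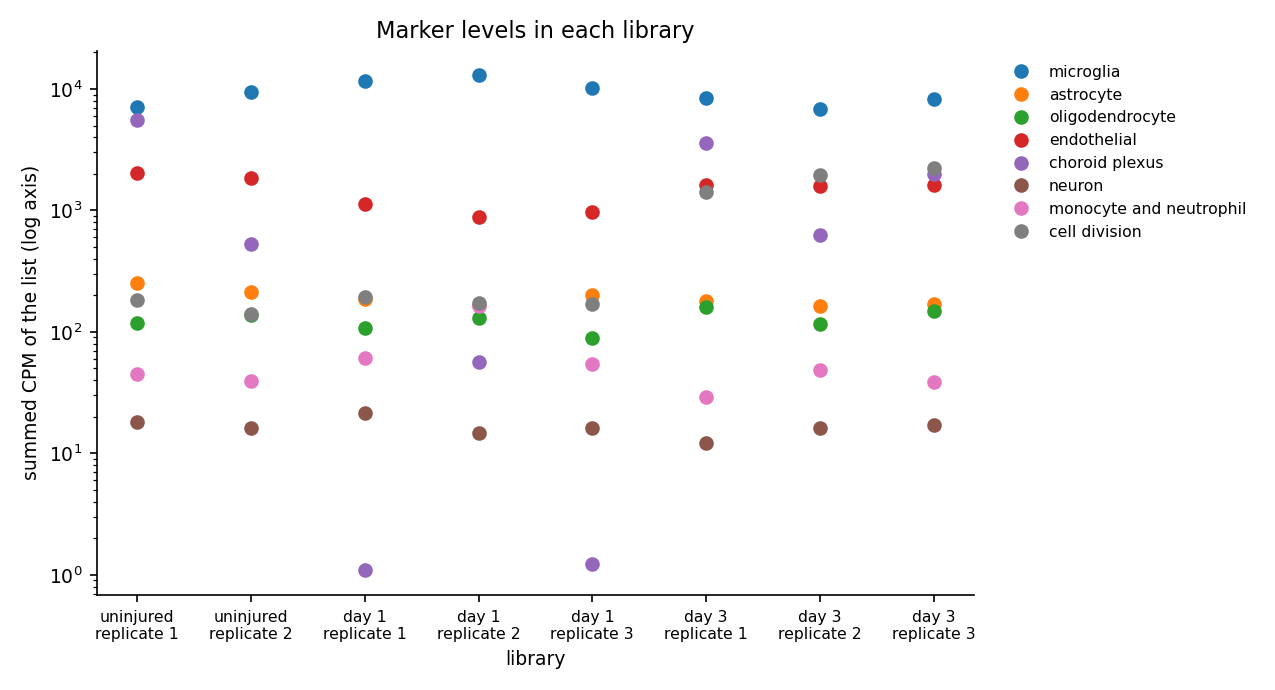
Summed CPM (log axis) of 8 marker lists in each of the 8 libraries, 1 point per list and library, in the order uninjured, day 1 and day 3. Choroid plexus markers spanned 1.09 to 5544 CPM, endothelial markers lay lowest in the 3 day 1 libraries, and cell division genes were at 1417 CPM or more only in the 3 day 3 libraries.

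Cells make cholesterol from acetyl-CoA through the mevalonate pathway. When sterols in the endoplasmic reticulum are low, the transcription factor SREBP2, the product of Srebf2, is carried to the Golgi, cut free and sent to the nucleus, where it turns on the genes of the pathway, its own gene among them. INSIG proteins hold it back when sterols are plentiful, and Insig1 is itself a target. Microglia take up lipid when they clear membranes and synaptic debris, and sterol taken up in this way can lower the demand for synthesis.

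SREBP2 binds sterol regulatory elements in promoters, usually beside sites for NF-Y, the factor that binds CCAAT boxes. Windows of 300 bases (250 before and 50 after the start, RefSeq, GRCm38.p6) were at hand for 5 of the 7 genes: Hmgcs1, Insig1, Srebf2, Idi1 and Cyp51. The following motifs were searched on both strands: the element form TCACNCCAC, CCAAT, and the E-box CACGTG, which share no letters in these windows. CCAAT or its reverse complement ATTGG was in 5 of the 5 windows and in 37.4% of 32851 promoter windows of the same length. TCACNCCAC was in 1 of the 5, Hmgcs1, and in 1.24% of all windows, and CACGTG in 1 of the 5, Insig1, and in 7.15%. The 250 bases before the start are shown for Hmgcs1 and Insig1, the windows that hold these motifs, and for Srebf2, the regulator's own gene, all on the plus strand, with matches in capitals. They lie at chr13:119690101-119690350 (Hmgcs1), chr5:28071162-28071411 (Insig1) and chr15:82147019-82147268 (Srebf2).
Hmgcs1: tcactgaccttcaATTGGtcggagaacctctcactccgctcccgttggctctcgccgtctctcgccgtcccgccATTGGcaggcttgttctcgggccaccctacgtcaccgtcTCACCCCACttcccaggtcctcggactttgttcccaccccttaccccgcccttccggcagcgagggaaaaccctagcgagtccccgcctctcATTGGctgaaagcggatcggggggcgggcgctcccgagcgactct
Insig1: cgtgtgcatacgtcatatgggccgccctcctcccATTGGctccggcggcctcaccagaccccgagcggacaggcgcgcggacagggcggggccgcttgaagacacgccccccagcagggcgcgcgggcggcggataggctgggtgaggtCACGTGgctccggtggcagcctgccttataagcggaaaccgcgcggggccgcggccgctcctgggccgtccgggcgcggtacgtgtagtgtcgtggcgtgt
Srebf2: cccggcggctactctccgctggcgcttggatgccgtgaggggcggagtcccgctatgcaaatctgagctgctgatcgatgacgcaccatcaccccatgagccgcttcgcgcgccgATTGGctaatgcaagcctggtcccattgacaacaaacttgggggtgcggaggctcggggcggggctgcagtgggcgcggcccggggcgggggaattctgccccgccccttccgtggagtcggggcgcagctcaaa
In Hmgcs1 the TCACNCCAC match covered positions -137 to -129 from the start and had a CCAAT box on either side, at -176 to -172 and at -45 to -41. In Insig1 the E-box was at -101 to -96 and the CCAAT box at -216 to -212, and in Srebf2 the CCAAT box was at -135 to -131. A match is a description of letters and not a measured site.

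None of the 7 genes passed the test at either day or between the days. At day 1 against uninjured, 0 of 7 rose and 0 fell, where 1.77% of all tested genes were called. At day 3 against uninjured the count was again 0 of 7, with 3.47% of all genes called, and between day 3 and day 1 it was 0 of 7, with 11.0% called. Calls were made with edgeR's quasi-likelihood test across all 17390 genes at a Benjamini-Hochberg adjusted p under 0.05. None of the 7 had an unadjusted p under 0.05 in any comparison by edgeR, DESeq2 or limma-voom, and the smallest adjusted p among them by edgeR was 0.524 at day 1, 0.407 at day 3 and 0.256 between the days. The median log2 fold change of the 7 was -0.11 at day 1, -0.11 at day 3 and -0.01 between the days, against medians over all genes of 0.06, -0.00 and 0.02. In these bulk libraries, fewer cells of a type and less RNA per cell cannot be told apart.

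A missed threshold does not show that levels were equal, so the 95% intervals of the fold changes set the bound. Outside Idi1, the intervals of the other 6 genes allowed at most a change to 0.493-fold or 1.94-fold at day 1, to 0.478-fold or 1.74-fold at day 3 and to 0.450-fold or 1.87-fold between the days. The interval lay wholly within a 2-fold change either way for 5 of 7 genes at day 1, against 24.7% of all genes. At day 3 this held for 3 of 7, against 22.3%, and between the days for 5 of 7, against 23.4%. The shares of all genes were not matched for level, so they do not show that the 7 were steadier than genes of like level.

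**Figure D2:**
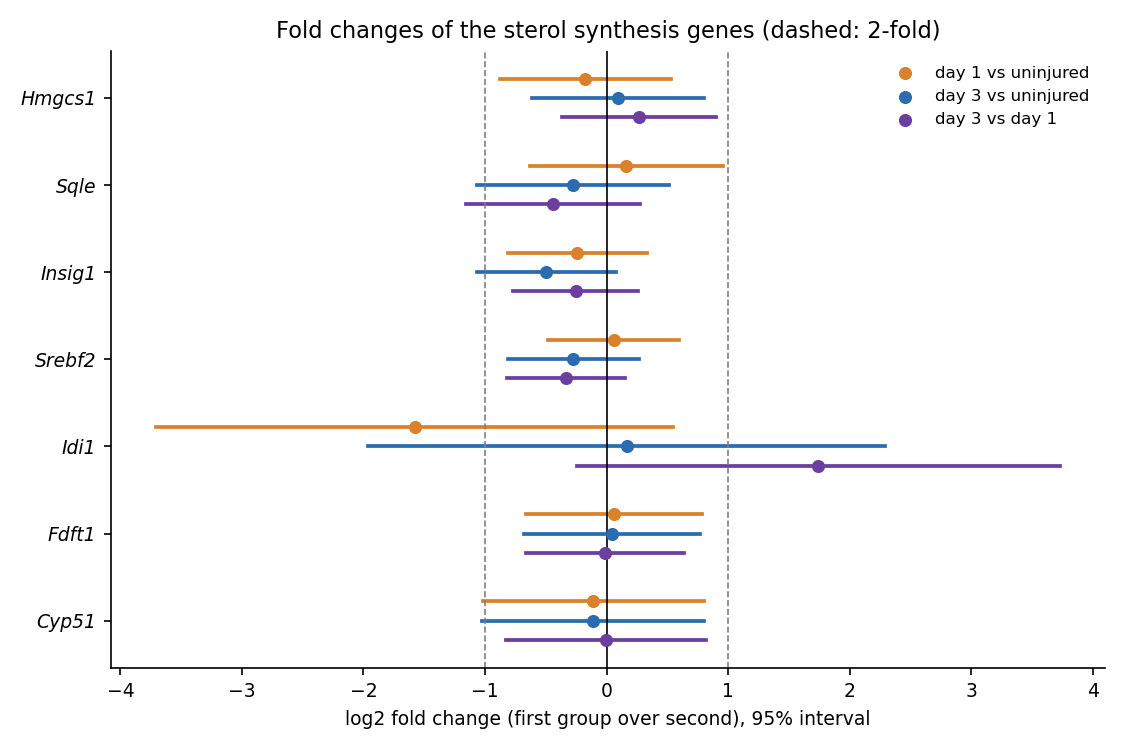
Log2 fold changes of the 7 genes (points) with 95% intervals (lines) for day 1 over uninjured, day 3 over uninjured and day 3 over day 1. All 21 intervals cross 0, and those of Idi1 are the widest, from -3.71 to 3.73.

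Srebf2, which encodes the transcription factor, was the steadiest of the 7. Its level was 36.3 and 34.3 CPM in the uninjured libraries, 36.5, 40.9 and 33.0 CPM in the day 1 libraries, and 31.6, 27.2 and 28.9 CPM in the day 3 libraries. The highest of the 8 libraries held 1.51 times the lowest, and the 3 day 3 libraries lay below the 5 others. Group means were 35.3 ± 1.47 (SD, n = 2) uninjured, 36.8 ± 3.99 (n = 3) at day 1 and 29.2 ± 2.22 CPM (n = 3) at day 3. The log2 fold change was -0.27 at day 3 over uninjured (SE 0.25, 95% interval -0.81 to 0.26, edgeR adjusted p = 0.690) and -0.33 at day 3 over day 1 (SE 0.23, interval -0.82 to 0.15, adjusted p = 0.389). At day 1 over uninjured it was 0.06 (SE 0.25, interval -0.48 to 0.60, adjusted p = 0.960), a value whose sign changed with the scaling.

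Insig1, which encodes the protein that retains SREBP in the endoplasmic reticulum and is the most abundant of the 7, had 79.1 and 70.5 CPM in the uninjured libraries, 51.3, 84.7 and 54.0 CPM in the day 1 libraries, and 68.9, 42.7 and 47.4 CPM in the day 3 libraries. The 3 day 3 libraries lay below both uninjured ones, while the day 1 libraries overlapped both groups. Means were 74.8 ± 6.08 uninjured, 63.3 ± 18.5 at day 1 and 53.0 ± 14.0 CPM at day 3 (SD, n = 2, 3 and 3). The difference at day 3 over uninjured, -0.50 on the log2 scale (SE 0.27, interval -1.07 to 0.08), had an unadjusted p of 0.0839 and an edgeR adjusted p of 0.407. At day 1 over uninjured the log2 fold change was -0.24 (interval -0.81 to 0.33, edgeR adjusted p = 0.775).

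Srebf2 and Insig1 were the 2 of 7 genes whose day 3 libraries did not overlap the uninjured ones, against 39.4% of all genes. Between day 3 and day 1 Srebf2 was the only one of the 7 with no overlap, against 29.8% of all genes, and at day 1 against uninjured Idi1 was, against 29.3%. As shares of the 7, all 3 counts were below those backgrounds.

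Among the enzymes, Hmgcs1 makes HMG-CoA, the substrate from which mevalonate is formed. Its level was 45.6 and 27.2 CPM in the uninjured libraries, 20.9, 35.3 and 40.5 CPM in the day 1 libraries, and 48.4, 33.8 and 34.1 CPM in the day 3 libraries. The 3 groups overlapped, with the lowest library at day 1 and the highest at day 3. Means were 36.4 ± 13.0 uninjured, 32.2 ± 10.2 at day 1 and 38.8 ± 8.32 CPM at day 3. The log2 fold change was -0.17 at day 1 over uninjured (SE 0.33, interval -0.88 to 0.53, edgeR adjusted p = 0.884) and 0.09 at day 3 over uninjured (SE 0.33, interval -0.61 to 0.80, adjusted p = 0.946), the sign of which turned with library size scaling.

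Idi1 interconverts the isoprene units from which sterols and prenyl groups are built. It was the lowest of the 7 and the least evenly measured, with 3 to 91 counts per library. It had 3.53 and 2.27 CPM in the uninjured libraries, 1.79, 0.241 and 0.862 CPM in the day 1 libraries, and 1.77, 6.78 and 1.21 CPM in the day 3 libraries. Both uninjured libraries lay above the 3 day 1 libraries, and a single day 3 library, replicate 2, was the highest of all. At day 1 over uninjured the log2 fold change was -1.58 (interval -3.71 to 0.55, edgeR adjusted p = 0.524). At day 3 over day 1 it was 1.74 (SE 0.93, interval -0.24 to 3.73, adjusted p = 0.256), and without day 3 replicate 2 it was 0.62. As fold changes over uninjured, the intervals of Idi1 ran from 0.0766-fold to 1.46-fold at day 1 and from 0.257-fold to 4.90-fold at day 3. A 4-fold fall at day 1 or a 4-fold rise at day 3 could not be told from the spread between libraries.

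Fdft1, squalene synthase, commits isoprenoids to sterols. Its level was 17.4 and 21.7 CPM in the uninjured libraries, 26.2, 15.1 and 19.9 CPM in the day 1 libraries, and 22.9, 17.1 and 20.6 CPM in the day 3 libraries. All 3 groups overlapped, and their means were 19.6 ± 3.02 uninjured, 20.4 ± 5.56 at day 1 and 20.2 ± 2.97 CPM at day 3. The interval of the log2 fold change ran from -0.66 to 0.79 at day 1 and from -0.68 to 0.77 at day 3, both over uninjured, around estimates of 0.06 and 0.05 whose sign changed under library size scaling (edgeR adjusted p = 0.971 and 0.977). Of the 4227 exonic bases of Fdft1, 774 also lie in Ctsb on the other strand, and the strand setting of the counting is not given in the sources used here. Ctsb, a lysosomal protease, stood far higher, at 3418 ± 186 CPM at day 3 against 1279 ± 220 CPM uninjured, and it rose at day 3 (edgeR adjusted p = 0.000273), so reads from the shared bases cannot be told apart.

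Sqle, squalene epoxidase, catalyses the first oxygenation step and is a control point of the pathway. It had 44.9 and 23.9 CPM in the uninjured libraries, 51.7, 31.5 and 32.3 CPM in the day 1 libraries, and 35.7, 16.8 and 32.6 CPM in the day 3 libraries. The groups overlapped, with the highest library at day 1 and the lowest at day 3. Means were 34.4 ± 14.8 uninjured, 38.5 ± 11.4 at day 1 and 28.4 ± 10.1 CPM at day 3. The log2 fold change was 0.16 at day 1 over uninjured (SE 0.37, interval -0.63 to 0.96, edgeR adjusted p = 0.910), -0.28 at day 3 over uninjured (SE 0.37, interval -1.07 to 0.51, adjusted p = 0.814) and -0.44 at day 3 over day 1 (SE 0.33, interval -1.15 to 0.27, adjusted p = 0.442).

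Cyp51, lanosterol demethylase, acts after the sterol rings have closed. Its level was 32.5 and 11.9 CPM in the uninjured libraries, 27.4, 16.1 and 18.3 CPM in the day 1 libraries, and 16.0, 27.8 and 17.9 CPM in the day 3 libraries. The uninjured group held both the highest and the lowest library of the 8, so that every day 1 and day 3 value fell between its members. Means were 22.2 ± 14.6 uninjured, 20.6 ± 5.99 at day 1 and 20.6 ± 6.31 CPM at day 3, and the log2 fold change was -0.11 in both comparisons with uninjured (SE 0.43, interval -1.02 to 0.80, edgeR adjusted p = 0.957 at day 1 and 0.95 at day 3). Cyp51 shares 166 of its 4415 exonic bases with Akap9 on the other strand.

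**Figure D3:**
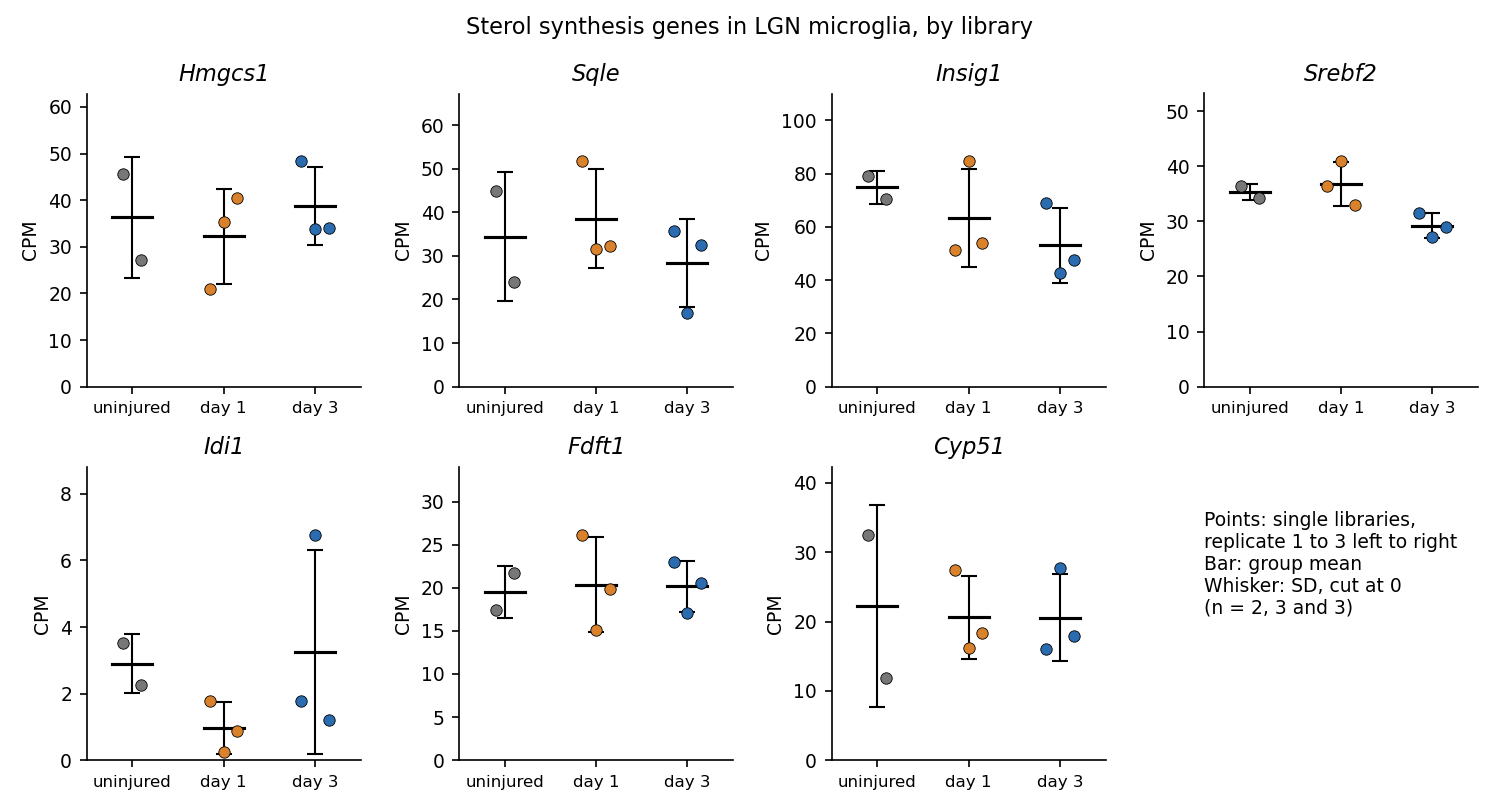
Level of each of the 7 genes in CPM (linear axes from 0, a scale per gene) in the uninjured, day 1 and day 3 libraries, with points for libraries, bars for group means and whiskers for the SD (n = 2, 3 and 3). The day 3 libraries of Srebf2 (27.2 to 31.6 CPM) lie below all others, those of Insig1 (42.7 to 68.9 CPM) below the uninjured ones, and the day 1 libraries of Idi1 (0.241 to 1.79 CPM) below the uninjured ones. All other groups overlap.

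Uninjured replicate 1 stood above uninjured replicate 2 for Hmgcs1, Sqle, Cyp51, Idi1, Insig1 and Srebf2, and below it for Fdft1. The same library had 5544 CPM of choroid plexus markers, against 527 CPM in replicate 2, and the part of those cells in the levels of the 7 genes was not tested. Without uninjured replicate 1 the log2 fold change of Cyp51 was 0.79 at day 1 and 0.78 at day 3, both over uninjured, and that of Hmgcs1 was 0.24 at day 1 and 0.50 at day 3. No gene of the 7 was called without that library.

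Levels between genes were compared per length, as CPM per kilobase of annotated exon. Insig1 stood first with a mean over 8 libraries of 20.1 ± 5.02 CPM per kilobase, at the 90.2 percentile of tested genes. Hmgcs1 followed at 7.77 ± 1.98 and Sqle at 6.07 ± 1.98 CPM per kilobase. Fdft1 at 4.76 ± 0.845, Cyp51 at 4.76 ± 1.64 and Srebf2 at 4.67 ± 0.617 CPM per kilobase did not differ beyond their spread. Idi1 came last at 0.658 ± 0.586 CPM per kilobase, at the 20.3 percentile. The levels of Hmgcs1 and Sqle also overlapped between libraries, from 4.54 to 10.5 and from 3.03 to 9.32 CPM per kilobase, while the lowest value of Insig1, 13.8, was above the highest of every other member.

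The 7 genes did not move as a block across libraries. The ratio of the highest to the lowest library was 1.51 for Srebf2, 1.73 for Fdft1, 1.98 for Insig1, 2.32 for Hmgcs1, 2.73 for Cyp51, 3.07 for Sqle and 28.1 for Idi1. As a description over 8 libraries that share depth and cell makeup, Pearson's r of log2 CPM was positive for 9 of 21 pairs of genes, with a median of -0.04, a lowest value of -0.59 for Srebf2 with Idi1 and a highest of 0.77 for Insig1 with Srebf2. The mean of the 7 standardised levels was 0.74 and -0.23 in the uninjured libraries, 0.30, -0.15 and -0.12 in the day 1 libraries, and 0.27, -0.46 and -0.36 in the day 3 libraries. Uninjured replicate 1 was highest, with 6 of the 7 genes above their own mean, and day 3 replicates 2 and 3 were lowest, with 2 of the 7. The map of deviations shows Hmgcs1 low and Sqle high in day 1 replicate 1, and Idi1 against Sqle and Insig1 in day 3 replicate 2.

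**Figure D4:**
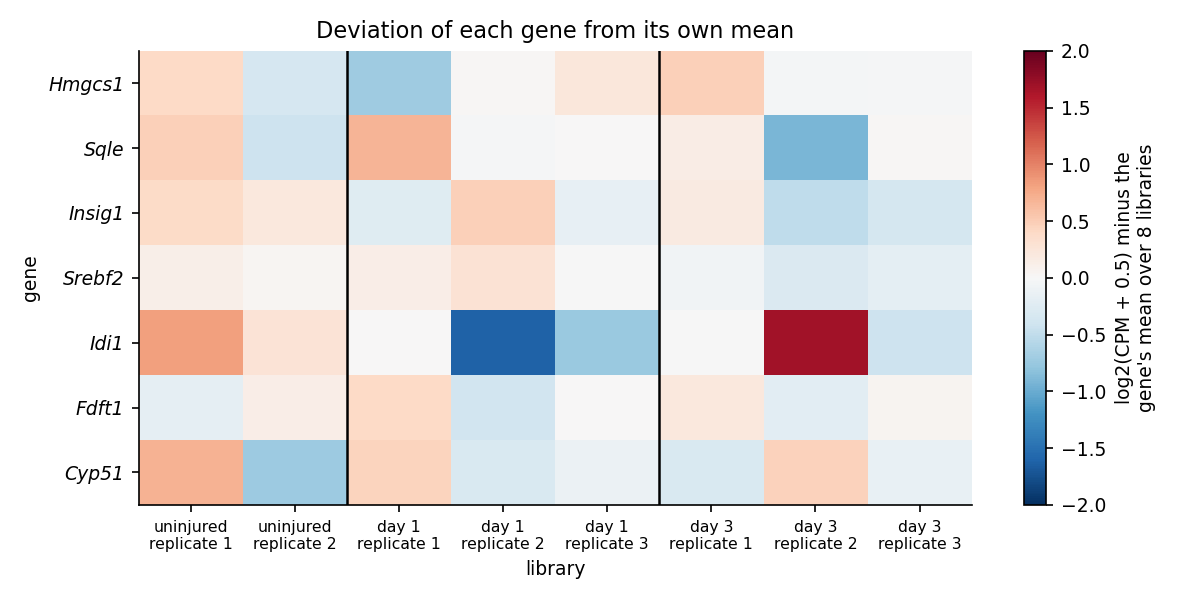
Deviation of each gene (rows) from its own mean over 8 libraries, as log2(CPM + 0.5), in each library (columns, in the order uninjured, day 1 and day 3, black lines between groups). Red is above and blue below the mean, and no group is of a single colour over all 7 genes.

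The genes whose pattern over the 8 libraries was most like this mean, among 9343 genes averaging 5 CPM or more, were Tomm20 (Pearson's r = 0.95), Slc20a1 (0.94), Pfkp (0.91), Spata2 (0.90), Arfgef1, Oxr1, Mfsd14a, Fmnl2, Setd6 and Zfp839 (0.86). None of the 10 is an enzyme of sterol synthesis. With 8 libraries and a mean of genes that do not vary together, the values describe likeness only.

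The rest of the pathway was followed in 6 lists of 82 genes, all of which passed the filter. At day 1 against uninjured 0 of 82 rose and 1 fell, 1.22% of the lists, against 1.77% of all genes. At day 3 against uninjured 0 of 82 were called, 0%, against 3.47% of all genes, with 15 at an unadjusted p under 0.05 by edgeR. DESeq2 called 5 of the 82, 6.10%, against 7.45% of all genes, and limma-voom called 1, 1.22%, against 4.91%. Between day 3 and day 1, 5 of 82 rose and 1 fell, 7.32%, against 11.0% of all genes. An unadjusted p under 0.05 by edgeR was reached by 14.8% of all genes at day 1, 15.8% at day 3 and 26.2% between the days, and the same counts for each list stand against those shares.

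Among the 16 other enzymes of sterol synthesis 0 were called in any comparison by edgeR or limma-voom, with 1, 4 and 3 at an unadjusted p under 0.05 by edgeR at day 1, at day 3 and between the days. DESeq2 called 0, 3 and 1, against 4.74%, 7.45% and 16.5% of all genes, the 3 at day 3 being Msmo1, Mvk and Sc5d. Their median log2 fold change was -0.23 at day 1, 0.01 at day 3 and 0.19 between the days. Msmo1, the methyl oxidase that acts after Cyp51, had 13.1, 17.3 and 22.8 CPM in the day 3 libraries, against 43.0 and 29.2 CPM in the uninjured libraries. Its groups did not overlap, and its log2 fold change was -1.03 (SE 0.31, edgeR adjusted p = 0.0963). The other 3 enzymes, named after their values were seen, had an unadjusted p under 0.05 at day 3, in both directions. Sc5d, a late desaturase, had 13.0 ± 0.873 CPM at day 3 and 26.0 ± 1.04 CPM uninjured (edgeR adjusted p = 0.138). Mvk, which phosphorylates mevalonate, had 6.31 ± 1.66 CPM at day 3 and 1.37 ± 0.703 CPM uninjured (log2 fold change 2.19, edgeR adjusted p = 0.136). Dhcr7, which makes cholesterol in the last step of one branch, had 11.9 to 18.6 CPM at day 3, against 4.95 and 6.36 CPM uninjured (log2 fold change 1.41, edgeR adjusted p = 0.181).

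The 13 genes of SREBP processing and sterol sensing gave 0 calls in any comparison by edgeR, DESeq2 or limma-voom, with 0, 2 and 1 at an unadjusted p under 0.05 by edgeR. March6, an E3 ligase that acts on squalene epoxidase, had 95.2 ± 18.5 CPM uninjured, 89.3 ± 28.5 CPM at day 1 and 61.3 ± 8.24 CPM at day 3. Its day 3 libraries lay below both uninjured ones, with a log2 fold change of -0.63 (SE 0.26, edgeR adjusted p = 0.233).

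In the list of uptake and intracellular transport, Mylip fell and Lipa rose between day 3 and day 1. Of the 16 genes, 0 were called at day 1 and 0 at day 3 against uninjured by edgeR. An unadjusted p under 0.05 was reached by 7 of 16 at day 1, a share above the 14.8% of all genes. At day 3 it was reached by 2 of 16, a share below the 15.8% of all genes. DESeq2 called 3 and 0, against 4.74% and 7.45% of all genes, and limma-voom 2 and 0, against 2.2% and 4.91%. Mylip was among the 3 called by DESeq2 at day 1. The others were uptake receptors with lower means at day 1 than uninjured. Between the days 1 rose and 1 fell by edgeR, 2 of 16 beside the 11.0% of all genes, a share near that background. DESeq2 called 3 between the days, against 16.5% of all genes, with an uptake receptor among them, and limma-voom called 2, against 9.98%. Mylip encodes the ligase IDOL, which marks lipoprotein receptors for degradation and is a target of the sterol-sensing LXR receptors. It had 176, 169 and 136 CPM in the day 3 libraries, against 324, 294 and 310 CPM in the day 1 libraries. The uninjured libraries held 172 and 211 CPM. The day 1 libraries lay above all 5 others, and at day 3 Mylip fell against day 1 by 0.95 on the log2 scale (SE 0.15, edgeR adjusted p = 0.00125). At day 1 over uninjured it was 0.69 higher on that scale (SE 0.17, edgeR adjusted p = 0.0555), which was called by DESeq2 and limma-voom and not by edgeR. Lipa, the lysosomal lipase that frees cholesterol from taken-up esters, had 238, 282 and 254 CPM in the day 3 libraries, against 175, 149 and 150 CPM in the day 1 libraries. Lipa rose by 0.71 on the log2 scale (SE 0.15, edgeR adjusted p = 0.00682), and its uninjured libraries, at 203 and 173 CPM, lay below the 3 day 3 libraries. The calls of Mylip and Lipa between the days held with each of the 8 libraries left out.

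Genes of SREBP1 and fatty acid synthesis, the sister branch that makes unsaturated fatty acids, included the desaturases Scd1 and Scd2 and the elongase Elovl6 among their calls. Of 16, 1 fell at day 1 by edgeR, against 1.77% of all genes called. An unadjusted p under 0.05 was reached by 7 of 16, a share above the 14.8% of all genes. DESeq2 called 3 at day 1, Elovl5, Elovl6 and Scd1, against 4.74% of all genes, and limma-voom called 1, against 2.2%. At day 3 against uninjured 0 were called by edgeR, against 3.47% of all genes. An unadjusted p under 0.05 was reached there by 6, a share above the 15.8% of all genes. DESeq2 called 1 at day 3, against 7.45% of all genes, and limma-voom 0, against 4.91%. Between day 3 and day 1, 3 rose by edgeR, against 11.0% of all genes called. An unadjusted p under 0.05 was reached by 4 between the days, near the 26.2% of all genes. DESeq2 called 4 between the days, against 16.5% of all genes, and limma-voom 1, Scd2, against 9.98%. Scd1, a stearoyl-CoA desaturase, had 1.25, 3.29 and 4.07 CPM in the day 1 libraries, against 24.2 and 14.3 CPM in the uninjured libraries, and fell by 2.74 on the log2 scale (SE 0.53, edgeR adjusted p = 0.0167). Without uninjured replicate 1 the adjusted p was 0.379, and in a fit of these groups alone it was 0.0686. Its day 3 libraries, at 10.3, 7.74 and 10.3 CPM, lay between the others, and at day 3 over day 1 it rose by 1.71 on the log2 scale (SE 0.48, adjusted p = 0.0358). That call was kept in 2 of the 8 fits that left a library out, with adjusted p up to 0.117, and it was lost with limma-voom (adjusted p = 0.0646) and in a fit of day 3 and day 1 alone (0.0771).

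Scd2, the desaturase that predominates in brain, had 78.0, 58.1 and 66.1 CPM in the day 3 libraries, against 27.1, 29.0 and 27.0 CPM in the day 1 libraries. It rose at day 3 over day 1 by 1.28 on the log2 scale (SE 0.26, edgeR adjusted p = 0.00541), a call kept with each of the 8 libraries left out, and its uninjured libraries held 52.5 and 27.1 CPM. Elovl6, a fatty acid elongase, had 12.2, 6.18 and 5.73 CPM in the day 3 libraries, against 0.0779, 1.28 and 1.48 CPM in the day 1 libraries, and rose by 3.06 on the log2 scale (SE 0.82, adjusted p = 0.0279). Its uninjured libraries, at 16.2 and 3.45 CPM, also lay above the day 1 libraries. The call between the days was lost without day 3 replicate 1, 2 or 3 (adjusted p = 0.114, 0.0530 and 0.0642) and with limma-voom (0.0569). At day 1 over uninjured the log2 fold change of Elovl6 was -3.35, called by DESeq2 and not by edgeR, and -1.85 without uninjured replicate 1. Acly, which makes cytosolic acetyl-CoA, had 147 ± 1.92 CPM uninjured, 201 ± 30.8 CPM at day 1 and 213 ± 23.2 CPM at day 3. The log2 fold change of Acly over uninjured was 0.45 at day 1 and 0.54 at day 3 (edgeR adjusted p = 0.232 and 0.124). Elovl5, an elongase of polyunsaturated fatty acids, had 99.9 ± 2.65 CPM uninjured, 59.8 ± 14.4 CPM at day 1 and 66.7 ± 7.42 CPM at day 3. Its log2 fold change over uninjured was -0.74 at day 1 and -0.58 at day 3 (edgeR adjusted p = 0.114 and 0.198), and DESeq2 called the difference at day 1.

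Scd1 and Elovl6 were low in the same 3 day 1 libraries that had 1.09 to 56.6 CPM of choroid plexus markers and the lowest endothelial sums. Within the uninjured group both were higher in replicate 1, the library with 5544 CPM of choroid plexus markers, at 24.2 against 14.3 CPM for Scd1 and 16.2 against 3.45 CPM for Elovl6. Scd2 followed the same order in the uninjured group, at 52.5 against 27.1 CPM. In day 3 replicates 1, 3 and 2, whose choroid plexus sums were 3588, 1977 and 624 CPM, it had 78.0, 66.1 and 58.1 CPM. Across groups the order of Scd2 broke, with uninjured replicate 1 below all 3 day 3 libraries. Uninjured replicate 2, with 527 CPM of those markers, was at the level of the day 1 libraries, 27.0 to 29.0 CPM. In day 3 replicates 1, 3 and 2 Elovl6 had 12.2, 5.73 and 6.18 CPM, and Scd1 10.3, 10.3 and 7.74 CPM. All the calls between the days, those of Scd1, Scd2, Elovl6, Lipa, Mylip and Ch25h, stood beside other differences between day 3 and day 1. Choroid plexus sums were 624 to 3588 CPM at day 3, against 1.09 to 56.6 CPM at day 1, and endothelial sums were 1604 to 1625 CPM, against 879 to 1124 CPM. Cell division sums were 1417 to 2215 CPM at day 3, against 169 to 194 CPM at day 1, and monocyte and neutrophil sums 29.3 to 48.3 CPM, against 54.5 to 164 CPM. The mitochondrial share was 22.8% to 30.3% at day 3, against 13.6% to 21.9% at day 1. The part of these differences in the 6 genes was not tested.

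The isoprenoid branch, 11 genes for the making and use of prenyl groups and dolichol, gave 0 calls in any comparison by edgeR, DESeq2 or limma-voom. It had 0 genes at an unadjusted p under 0.05 by edgeR in any comparison. Nus1, a subunit of the enzyme that makes dolichol chains, had 55.4 ± 8.62 CPM uninjured, 59.7 ± 23.4 CPM at day 1 and 46.5 ± 5.04 CPM at day 3. Pggt1b, a subunit of a protein prenyltransferase, had 22.8 ± 5.45 CPM uninjured, 18.0 ± 12.7 CPM at day 1 and 13.6 ± 5.18 CPM at day 3.

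Of 10 genes of oxysterols and LXR, the receptors that turn on cholesterol export, 0 were called at day 1 by edgeR, against 1.77% of all genes. At day 3 against uninjured 0 were called as well, against 3.47%. An unadjusted p under 0.05 was reached by 1 at each day, against 14.8% and 15.8%. DESeq2 called 0 and 1, against 4.74% and 7.45% of all genes, and limma-voom 0 and 1, against 2.2% and 4.91%. Between the days 1 rose by edgeR, against 11.0% of all genes called. DESeq2 called 2 between the days, against 16.5%, and limma-voom 1, against 9.98%. Ch25h, which makes 25-hydroxycholesterol, an oxysterol that blocks SREBP processing, had 13.9, 14.4 and 8.96 CPM in the day 3 libraries, against 1.01, 3.69 and 1.42 CPM in the day 1 libraries. The uninjured libraries held 4.49 and 1.55 CPM. All 3 day 3 libraries lay above the 5 others. At day 3 over day 1 Ch25h rose by 2.61 on the log2 scale (SE 0.63, edgeR adjusted p = 0.0162), with an adjusted p of 0.0524 when day 1 replicate 3 was left out, and of 0.0636 and 0.0622 when replicates 1 and 2 of day 3 were. At day 3 over uninjured its log2 fold change was 2.04 (SE 0.71, edgeR adjusted p = 0.151, called by DESeq2 and limma-voom). Abca1, the export pump that LXR controls, had 410 ± 6.91 CPM uninjured, 468 ± 19.2 CPM at day 1 and 444 ± 12.4 CPM at day 3. Its log2 fold change over uninjured was 0.19 at day 1 and 0.12 at day 3 (edgeR adjusted p = 0.583 and 0.775). Apoe, the carrier of exported cholesterol, had 258 ± 41.4 CPM uninjured, 298 ± 43.1 CPM at day 1 and 268 ± 33.8 CPM at day 3, with overlapping groups.

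**Figure D5:**
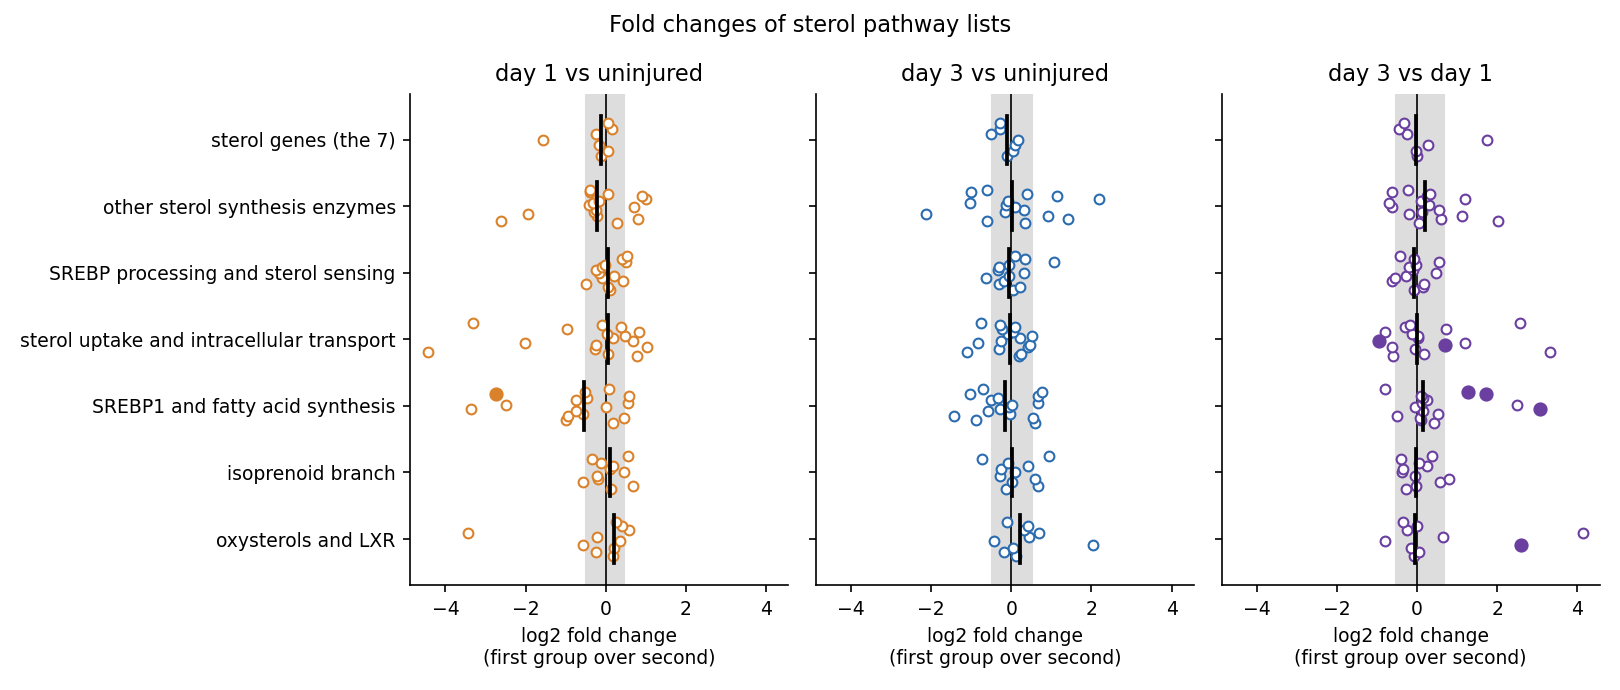
Log2 fold changes of the 7 sterol genes and of 6 pathway lists in each comparison, with 1 circle per gene, filled where called by edgeR, black bars for list medians and a grey band for the interquartile range of all 17390 genes. The 7 genes hold no filled circle, and the filled circles lie in the lists of uptake, fatty acid synthesis and oxysterols, from -2.74 at day 1 to 3.06 between the days.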

How the data were processed

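The values deposited by the authors are raw counts for each Ensembl gene and library, and no other unit was used. Per the submitters' processing notes, FastQC, STAR and HTSeq were run on the mouse build mm9. Tool versions, annotation and strandedness were not given in the sources used here. RNA was linearly amplified before sequencing, per the labels' protocols, which can widen the spread of low genes.

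Groups came from the labels. Of 26062 IDs, 25925 matched a symbol in GENCODE M21, the source of exon lengths and overlaps, whose build differs from mm9. The rest held 0.127% of counts. Counts were tested with edgeR 4.0.16 (R 4.3.3): filterByExpr, TMM scaling and 1 robust quasi-likelihood model over the 8 libraries, with Benjamini-Hochberg adjustment over 17390 genes. The common biological coefficient of variation was 51.1%. CPM are TMM-scaled. Each SE by edgeR is the absolute log2 fold change over the square root of the test's F statistic, and intervals use that SE with a t quantile. Alternatives were DESeq2 1.42.0, limma-voom (limma 3.58.1), RLE or library size scaling, no filter, the compared groups alone, the replicate number as a block, and each library left out. The steps were tested on simulated data.

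The members and the lists were chosen with earlier results of these data known. The rule names the 7 members, up to 6 called genes of each list and comparison, the 2 of each list with the largest group mean, and the 10 most alike genes. It leaves out predicted genes, and some genes that it takes are not reported here. No other gene's transcript matched a member at 95% identity over 200 bases.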

Additional observations from a re-analysis of the deposited data

How the results depend on the processing

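None of the 7 genes was called under any of 15 alternatives. There were 0 calls among them by each tool, scaling and filter, in the fit with the replicate block and in the 8 fits that left out a library. Of 315 recomputed fold changes of the 7 genes, 301 lay within 1 SE of the reported value, 39 had the other sign, and the lowest adjusted p was 0.148. Deviations of same-numbered libraries from their group means had correlations of -0.06 to 0.09, and those of other libraries -0.09 to 0.05. Deviations of the 2 uninjured libraries mirror each other, so these values cannot show whether the numbers pair the libraries. With the replicate block the log2 fold change of Cyp51 was 0.048, 0.12 and 0.075 at day 1, at day 3 and between the days. The cause of the sign changes was not tested. With library size scaling, which moved the median of all genes at day 3 to -0.15, log2 fold changes over uninjured were -0.068 for Srebf2 and -0.048 for Fdft1 at day 1, and -0.049 for Hmgcs1 and -0.10 for Fdft1 at day 3. With limma-voom Cyp51 was at 0.033 at day 1 and 0.024 at day 3, Idi1 at -0.19 and Elovl6 at 0.064 at day 3, and Fdft1 at 0.015 between the days. With no filter Fdft1 was at -0.013 at day 3, and in fits of the compared groups alone Srebf2 was at -0.0019 at day 1 and Cyp51 at 0.00045 between the days. Leaving out each library gave ranges at day 1 of -0.50 to 0.24 for Hmgcs1, -0.22 to 0.68 for Sqle, -0.071 to 0.13 for Srebf2, -0.16 to 0.23 for Fdft1, -0.66 to 0.79 for Cyp51, -0.92 to 0.027 for Scd2 and -1.35 to 0.39 for Ch25h. At day 3 they were -0.23 to 0.50 for Hmgcs1, -0.66 to 0.24 for Sqle, -1.01 to 0.51 for Idi1, -0.11 to 0.21 for Fdft1, -0.66 to 0.78 for Cyp51 and -1.01 to 1.21 for Elovl6. Between the days they were -0.49 to 0.0067 for Insig1, -0.19 to 0.20 for Fdft1 and -0.28 to 0.25 for Cyp51. Calls among the 82 pathway genes, 1, 0 and 6 as reported at day 1, at day 3 and between the days, were 6, 5 and 10 with DESeq2. They were 3 at day 1 with limma-voom and with no filter, and 1 at day 3 with limma-voom, library size scaling or no filter. In the compared groups alone they were 0 at day 1 and 6 at day 3, and they ran from 0 to 2, from 0 to 2 and from 3 to 9 with a library left out. Over all genes the calls, 308, 604 and 1912, were 824, 1295 and 2872 with DESeq2, 110 at day 1 and 1345 at day 3 in the compared groups alone, and 39 to 368, 108 to 982 and 747 to 2362 with a library left out. The lowest of these counts came without uninjured replicate 1 at day 1 and at day 3, and without day 3 replicate 3 between the days. The uninjured group of 2 libraries and the counts of Idi1, 3 to 91 per library, limit what could be detected.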
